A study of Homo sapiens with 12 samples.

Results

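Untreated SW48 cells were compared with untreated HCT116 cells, to ask how far the steady-state transcriptomes of these colorectal cancer lines differ before any drug is given. The 2 means compared came from 4 of the 12 arrays of the study, 2 of untreated SW48 and 2 of untreated HCT116, each labelled p53 wild type, while all 12 arrays entered the fit that set the standard errors and p-values. It covered every gene for which a probe set was paired with 1 gene symbol, 14118 genes in all. The study also holds SW48, HCT116 and RKO cells given 10 µM Nutlin-3a for 8 h, with 2 arrays each, and 2 arrays of untreated RKO. Nutlin-3a frees p53 from its inhibitor MDM2. The platform was the Affymetrix Human Gene 2.0 ST array, whose probe sets read many exons of a gene. A level below is the deposited log2 signal of 1 probe set, and a difference is the SW48 mean minus the HCT116 mean on the log2 scale, given ± its standard error (SE) from limma over n = 2 arrays per line. A gene was called at a limma adjusted p under 0.05, and "at least 2-fold" means called with a difference of 1 or more in size.

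Both lines came from colon carcinomas of the type with defective DNA mismatch repair, and both are known to carry stabilizing mutations of β-catenin, the effector of Wnt signalling. In the colon, Wnt signalling keeps crypt cells undifferentiated, while factors such as CDX2 set intestinal identity and cell-junction proteins hold the epithelium together. Each group is a single cell line, so a difference belongs to these lines and to whatever culture or array batch follows them, and these cannot be told apart. The labels call the samples duplicates without naming separate cultures, so p-values measure only the spread between these samples, which may be technical. Their growth text names HCT116 alone and their extraction text speaks of thyroids.

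Markers were read against the labelled cell type first. Of 13 colorectal epithelial markers 10 had a named probe set, with a median level of 7.2 in SW48 and 6.5 in HCT116. Of these 10, 2 were called higher in SW48 and 3 lower, so the medians do not show a lead of SW48 throughout. The lowest level among the 10 was 4.4 in each line, inside the range of the thyroid markers given below. EPCAM, an epithelial adhesion protein, was the brightest of the 10 in SW48. Its levels were 11.11 and 11.12 on the SW48 arrays and 11.04 and 10.99 on the HCT116 arrays (difference 0.10 ± 0.19, adjusted p = 0.731). The 8 measured thyroid markers lay between 4.2 and 6.0 in SW48 and between 4.3 and 6.6 in HCT116. Immune, fibroblast and endothelial markers had median levels of 5.7, 3.4 and 4.6 in SW48 and 5.7, 3.3 and 4.5 in HCT116. The 2 arrays of untreated SW48 correlated at r = 0.997 over all probe sets, as did those of untreated HCT116, while SW48 and HCT116 arrays correlated with each other at 0.962 to 0.963.

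The lines differed at a large share of genes. A total of 6334 genes were called (44.9% of those tested), of which 3211 were higher in SW48 (22.7%) and 3123 were lower (22.1%). Both SW48 arrays lay above both HCT116 arrays at 4976 genes (35.2%) and below both at 4982 (35.3%). Most of these differences were small: the smallest called was 0.15 in size, the median SE was 0.088, and 95% of all differences lay between -1.38 and 1.42. At least 2-fold differences were found for 1309 genes (9.27%), with 716 higher (5.07%) and 593 lower (4.2%). The counts then fell steeply, to 170 higher and 197 lower at 4-fold and to 30 and 35 at 16-fold. The median difference over all genes was -0.001. A fit to the 4 untreated SW48 and HCT116 arrays alone called 5990 genes, 1310 of them at least 2-fold apart.

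**Figure D1:**
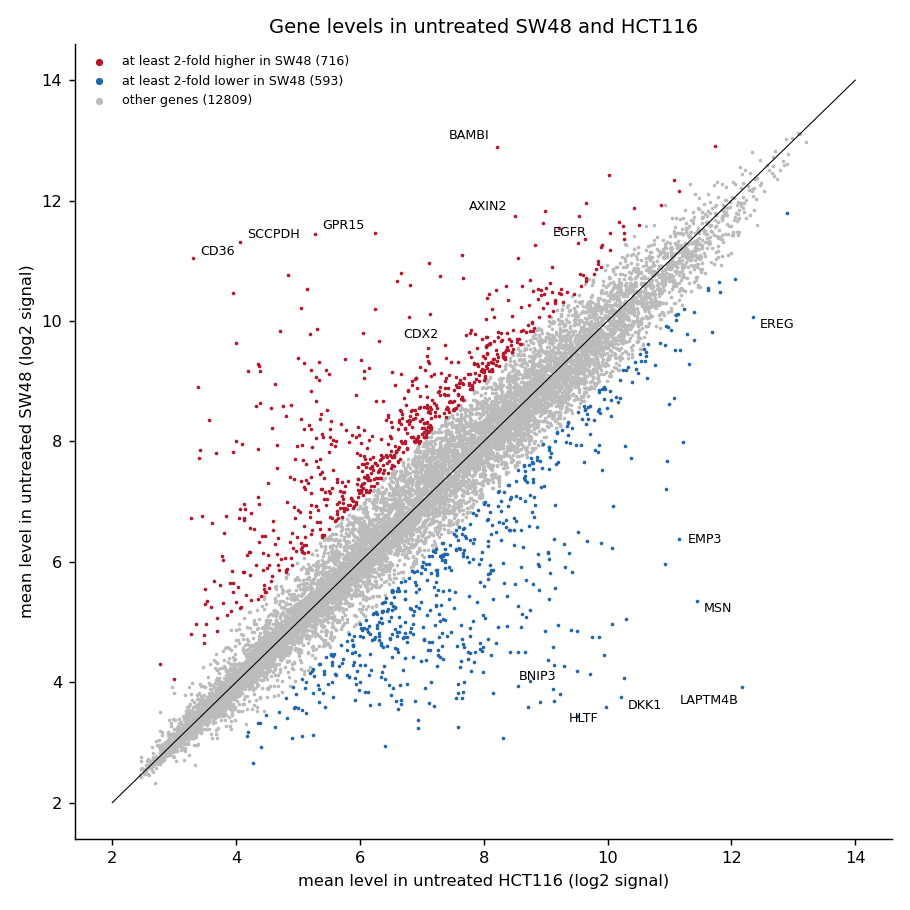
Mean log2 level of each of the 14118 genes in untreated SW48 (vertical axis) against untreated HCT116 (horizontal axis), 2 arrays each. The line marks equal levels, red points are the 716 genes at least 2-fold higher in SW48 and blue points the 593 at least 2-fold lower. CD36 lies far above the line, with HCT116 near the low end of the scale, and LAPTM4B far below it, with SW48 near the low end.

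CD36, a fatty acid transporter and scavenger receptor, led the genes higher in SW48. Its levels were 11.09 and 10.99 on the SW48 arrays, against 3.28 and 3.34 on the HCT116 arrays, a 212-fold difference (7.73 ± 0.082, adjusted p = 1.29e-11). SCCPDH, which codes for an oxidoreductase related to saccharopine dehydrogenase, had 11.21 and 11.43 in SW48 and 4.05 and 4.08 in HCT116 (7.26 ± 0.11, adjusted p = 5.88e-11). GPR15, a receptor that guides lymphocytes to the colon, reached 11.34 and 11.53 in SW48 and 5.19 and 5.35 in HCT116 (6.17 ± 0.13, adjusted p = 2.11e-10). In all 3 genes the SW48 arrays stood far above the HCT116 arrays.

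TXNIP, an inhibitor of thioredoxin that is induced by glucose, had 10.72 and 10.83 in SW48 and 5.01 and 4.66 in HCT116 (5.93 ± 0.11, adjusted p = 1.11e-10). NNT, the mitochondrial transhydrogenase that makes NADPH, had 10.18 and 10.26 in SW48 and 5.25 and 4.84 in HCT116 (5.18 ± 0.12, adjusted p = 6.02e-10). HPGD, the enzyme that breaks down prostaglandin E2, had 9.31 and 9.27 in SW48 and 4.20 and 4.50 in HCT116 (4.94 ± 0.10, adjusted p = 1.99e-10). CROT, a peroxisomal carnitine acyltransferase, differed by 4.81 ± 0.068. The rest of the 12 protein-coding genes with the largest difference in that direction were PRTFDC1, a homologue of the purine salvage enzyme HPRT (6.51 ± 0.19), QNG1, a queuosine salvage enzyme (5.51 ± 0.086), GALNT8 of the mucin-type glycosyltransferase family (5.12 ± 0.11), PLBD1 (4.99 ± 0.087) and CEACAM5. CEACAM5, the carcinoembryonic antigen, had 9.34 and 9.16 in SW48 and 4.55 and 4.19 in HCT116 (4.88 ± 0.15, adjusted p = 3.59e-09).

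LAPTM4B, a lysosomal membrane protein, showed the largest difference of the opposite sign. Its levels were 3.88 and 3.95 on the SW48 arrays, against 12.16 and 12.18 on the HCT116 arrays, which is 306-fold lower in SW48 (-8.26 ± 0.094, adjusted p = 1.29e-11). DKK1, a secreted antagonist of the Wnt co-receptors, had 3.90 and 3.63 in SW48 and 10.22 and 10.21 in HCT116 (-6.45 ± 0.086, adjusted p = 2.71e-11). HLTF, a DNA helicase and ubiquitin ligase that remodels stalled replication forks, had 3.54 and 3.63 in SW48 and 9.93 and 10.00 in HCT116 (-6.38 ± 0.081, adjusted p = 1.98e-11). Each stood near the low end of the scale on both SW48 arrays.

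MSN, which codes for moesin, a linker of actin to the membrane, had 5.25 and 5.46 in SW48 and 11.45 and 11.43 in HCT116 (-6.08 ± 0.11, adjusted p = 1.11e-10). OSMR, the oncostatin M receptor subunit, had 3.77 and 3.85 in SW48 and 9.20 and 9.25 in HCT116 (-5.42 ± 0.099, adjusted p = 1.11e-10). GTSF1, a germ cell factor of the piRNA pathway, had 3.79 and 3.59 in SW48 and 9.19 and 9.08 in HCT116 (-5.44 ± 0.11, adjusted p = 1.91e-10). IFITM2, an interferon-induced antiviral membrane protein, had 5.09 and 5.00 in SW48 and 10.34 and 10.27 in HCT116 (-5.26 ± 0.22, adjusted p = 3.24e-08). The remaining genes of the 12 were NETO2, an auxiliary subunit of kainate receptors (-6.19 ± 0.14), C18orf54 (-6.07 ± 0.15), the zinc finger gene ZNF480 (-5.57 ± 0.11), ARHGAP29 (-5.50 ± 0.11) and OGFRL1 (-5.32 ± 0.091). No detection call was used, so a value near the bottom of the scale may be background, and folds that rest on one can understate the difference.

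**Figure D2:**
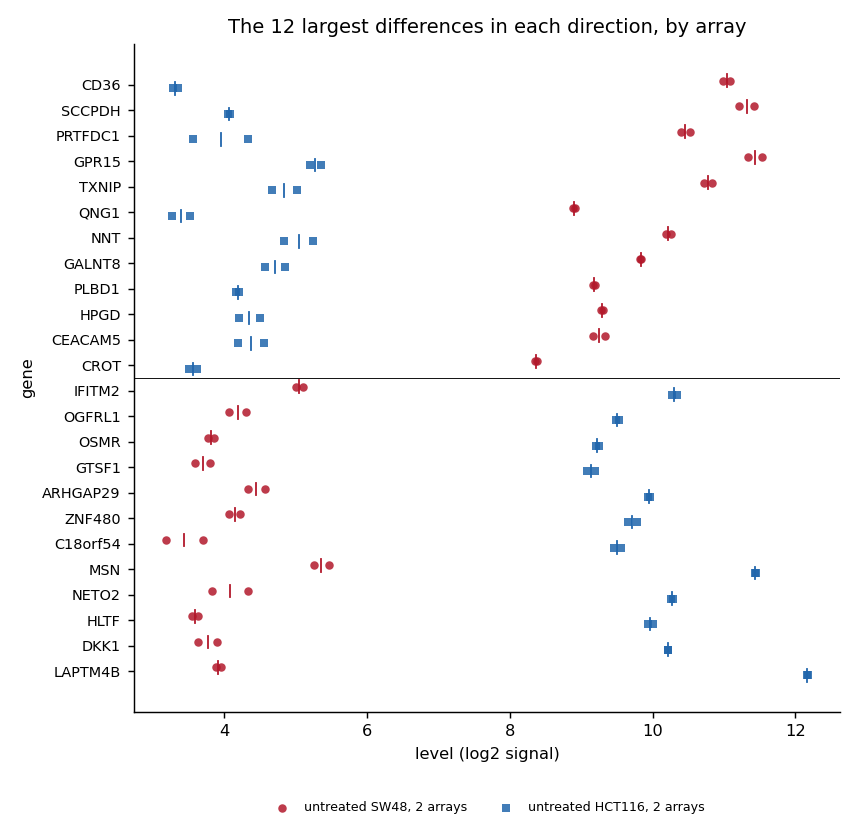
Log2 level on each of the 4 untreated arrays for the 12 protein-coding genes with the largest difference in each direction, genes higher in SW48 above the line and lower in SW48 below it. Red circles are SW48 arrays, blue squares HCT116 arrays and ticks the mean of each pair. Most pairs of arrays lie close together, while PRTFDC1 in HCT116 had 4.33 and 3.56. Only genes whose lines did not overlap could be chosen, so the gap between the lines follows from the choice.

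The third line of the study, RKO, gave levels for the same probe sets, as a description. Untreated RKO was low for LAPTM4B (3.65 and 3.59), HLTF (3.78 and 3.74), MSN (5.21 and 5.22) and DKK1 (4.42 and 4.30), as SW48 was. Of the other genes among the 12 lowest in SW48, GTSF1 (mean 3.77) and OSMR (3.97) were low in RKO, and NETO2 (10.92), C18orf54 (9.45), ZNF480 (9.22), ARHGAP29 (9.30), OGFRL1 (11.57) and IFITM2 (10.43) were high, as in HCT116. RKO was also low for CD36 (3.22 and 3.18) and GPR15 (4.91 and 4.94), as HCT116 was, and high for SCCPDH (10.59 and 10.50) and TXNIP (9.88 and 9.74), as SW48 was. Over the 30 genes at least 16-fold higher in SW48, RKO lay nearer HCT116 at 23, and over the 35 at least 16-fold lower it lay nearer SW48 at 22.

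Promoter sequence is shown for 4 of these genes, picked as examples and not by a rule. The 250 bases before the RefSeq gene start are given on GRCh38.p14 in the direction of transcription, with each CG dinucleotide in capitals.
CD36 (chr7:80601957-80602206, plus strand): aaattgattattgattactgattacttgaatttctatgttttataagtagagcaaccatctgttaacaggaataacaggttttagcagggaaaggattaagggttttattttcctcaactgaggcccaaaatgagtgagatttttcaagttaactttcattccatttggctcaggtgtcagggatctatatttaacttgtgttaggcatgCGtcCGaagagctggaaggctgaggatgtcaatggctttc
CEACAM5 (chr19:41708376-41708625, plus strand): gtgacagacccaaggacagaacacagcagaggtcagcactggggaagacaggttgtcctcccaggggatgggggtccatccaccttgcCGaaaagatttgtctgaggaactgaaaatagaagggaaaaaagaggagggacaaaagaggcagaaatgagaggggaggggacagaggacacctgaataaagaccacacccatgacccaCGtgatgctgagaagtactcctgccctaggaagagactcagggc
SCCPDH (chr1:246724159-246724408, plus strand): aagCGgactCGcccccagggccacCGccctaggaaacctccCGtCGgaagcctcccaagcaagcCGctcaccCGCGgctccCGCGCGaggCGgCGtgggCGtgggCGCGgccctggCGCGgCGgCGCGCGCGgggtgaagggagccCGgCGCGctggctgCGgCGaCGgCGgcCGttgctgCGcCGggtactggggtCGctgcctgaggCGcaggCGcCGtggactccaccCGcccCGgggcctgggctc
HLTF (chr3:149086534-149086783, minus strand): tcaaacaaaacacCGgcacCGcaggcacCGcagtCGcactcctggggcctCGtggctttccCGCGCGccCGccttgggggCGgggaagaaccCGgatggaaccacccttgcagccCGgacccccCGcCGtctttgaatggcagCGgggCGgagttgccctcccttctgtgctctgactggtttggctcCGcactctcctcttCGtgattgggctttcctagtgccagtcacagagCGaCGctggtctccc
The CD36 and CEACAM5 windows held 2 CG each, the SCCPDH window 39 and the HLTF window 20. Counting CG in the same window of 9559 protein-coding genes with a promoter entry gave a median of 19. The median was 19 over 512 genes at least 2-fold higher in SW48 and 20 over 449 at least 2-fold lower. Over the 19 genes at least 16-fold higher it was 13, with quartiles of 5 and 24, and over the 29 at least 16-fold lower it was 20, with quartiles of 9 and 27. A window with 5 or fewer CG was found for 26.3% of these 19, 10.3% of these 29 and 18.3% of all 9559. DNA methylation was not measured in these samples.

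Feedback genes of the Wnt pathway were among the large differences. Of 25 measured stem cell and Wnt target genes, 14 were higher in SW48 and 7 lower, and 10 were at least 2-fold higher and 3 at least 2-fold lower. Their median difference was 0.36, and their median absolute difference of 1.01 compares with 0.21 over all genes. Over all genes 22.7% were higher and 22.1% lower, 5.07% and 4.2% by at least 2-fold, and every list below is set beside these shares. BAMBI, a pseudoreceptor that dampens TGF-beta signals, had 12.88 and 12.91 in SW48 and 8.17 and 8.24 in HCT116 (4.69 ± 0.055, adjusted p = 1.29e-11). AXIN2, the classic negative feedback target of β-catenin, had 11.70 and 11.80 in SW48 and 8.43 and 8.57 in HCT116 (3.25 ± 0.067, adjusted p = 2.11e-10). These were 25.8-fold and 9.50-fold higher in SW48.

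NOTUM, a secreted enzyme that inactivates Wnt ligands, had 10.80 on both SW48 arrays and 6.84 and 6.50 on the HCT116 arrays (4.13 ± 0.11, adjusted p = 1.15e-09). The membrane ubiquitin ligases RNF43 and ZNRF3, which remove Frizzled receptors, were higher in SW48 by 1.93 ± 0.073 and 1.97 ± 0.071. LGR5, the intestinal stem cell receptor for R-spondins, had 6.73 and 6.78 in SW48 and 3.75 and 3.93 in HCT116 (2.91 ± 0.093, adjusted p = 4.23e-09). The cyclin gene CCND2 was higher by 3.82 ± 0.085. The stem cell list was not uniform: the RNA-binding protein gene MSI1 (-2.87 ± 0.087), CDCA7 (-1.35 ± 0.072) and the hyaluronan receptor gene CD44 (-1.11 ± 0.086) were lower in SW48.

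Among 35 measured Wnt ligands, receptors and antagonists, 15 were higher in SW48 and 3 lower. That is 18 of 35 called, against 44.9% of all genes. The receptor FZD7 had 10.72 on both SW48 arrays and 7.66 and 7.67 on the HCT116 arrays (3.05 ± 0.075, adjusted p = 6.60e-10). FZD10, another Frizzled receptor, differed by 2.25 ± 0.17 and LGR6, a relative of LGR5, by 1.68 ± 0.18. DKK1 was the only member of this list at least 2-fold lower in SW48, against 5 at least 2-fold higher.

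Regulators of epithelial state were mostly higher in SW48, and mesenchymal genes mostly lower. Of 11 measured epithelial transcription and splicing regulators, 9 were higher and 0 lower by limma (0 also at an unadjusted p under 0.05), with a median difference of 0.76. GRHL3, a Grainyhead factor of barrier epithelia, had 9.90 and 9.68 in SW48 and 5.23 and 5.16 in HCT116 (4.60 ± 0.13, adjusted p = 1.99e-09). The Krüppel-like factors KLF4 (2.14 ± 0.14) and KLF5 (1.25 ± 0.073), which act in differentiated and crypt cells of the gut, and the zinc finger repressors OVOL2 (1.77 ± 0.14) and OVOL1 (1.13 ± 0.095) were also at least 2-fold higher.

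Of 24 measured mesenchymal genes 14 were lower in SW48 and 3 higher, with a median difference of -0.31. Beside MSN, the membrane protein gene EMP3 had 6.32 and 6.43 in SW48 and 11.19 and 11.11 in HCT116 (-4.78 ± 0.069, adjusted p = 3.76e-11). AXL, a receptor tyrosine kinase tied to mesenchymal state, had 6.41 and 6.20 in SW48 and 9.95 and 9.85 in HCT116 (-3.59 ± 0.080, adjusted p = 3.45e-10). Other members went the opposite way. TNC, the matrix protein tenascin C, had 8.61 and 7.79 in SW48 and 5.17 and 5.03 in HCT116 (3.10 ± 0.21, adjusted p = 9.31e-07), and the cytokine gene IL32 differed by 1.77 ± 0.18. VIM, the intermediate filament gene most used as a mesenchymal marker, had 6.02 and 6.13 in SW48 and 6.20 and 6.10 in HCT116, so the groups overlapped (-0.07 ± 0.083, adjusted p = 0.521).

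Junction genes differed in both directions. Of 30 measured, 12 were higher in SW48 and 4 lower, and the largest differences had both signs. The 16 of 30 called compare with 44.9% of all genes. The tight junction gene CLDN1 had 6.85 and 6.90 in SW48 and 4.02 and 4.09 in HCT116 (2.82 ± 0.12, adjusted p = 3.30e-08). CLDN4, a claudin too, had 6.03 and 6.06 in SW48 and 9.05 and 9.04 in HCT116 (-3.002 ± 0.10, adjusted p = 5.84e-09). Of the desmosomal cadherins, DSG3 was higher (2.34 ± 0.11) and DSC3 lower (-3.82 ± 0.13). Keratins showed the same mixture, with 3 of 21 higher and 7 lower, and these 10 of 21 called were near the 44.9% of all genes. KRT80 differed by 1.73 ± 0.090, KRT23 by -2.28 ± 0.078, KRT19 by -1.38 ± 0.22 and KRT15 by -1.05 ± 0.083. KRT8 did not pass the test (-0.06 ± 0.11, adjusted p = 0.733).

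Intestinal identity differed at a few genes. CDX2, the homeobox factor that specifies intestine, had 9.63 and 9.57 in SW48 and 7.42 and 7.34 in HCT116 (2.22 ± 0.065, adjusted p = 2.32e-09). CDX1, its close relative, had 5.89 and 5.66 in SW48 and 5.87 and 5.88 in HCT116 (-0.10 ± 0.10, adjusted p = 0.501). Of 20 measured intestinal transcription factors 5 were higher and 2 lower, among them the pioneer factor FOXA1 (1.22 ± 0.099), TFCP2L1 (0.69 ± 0.079) and GATA6 (-0.57 ± 0.082). Over all genes 22.7% were higher and 22.1% lower.

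Of 35 measured enterocyte and colonocyte genes 9 were higher in SW48 and 4 lower, 13 called in all, against 44.9% of all genes. DPP4, a brush border peptidase, had 11.09 and 11.10 in SW48 and 7.68 and 7.61 in HCT116 (3.45 ± 0.12, adjusted p = 8.54e-09). EPS8L3 (2.87 ± 0.15) and CEACAM6 (2.04 ± 0.12), a relative of the carcinoembryonic antigen, were higher, while the carbonic anhydrase gene CA2 was lower (-2.75 ± 0.097). Of 22 goblet, Paneth and enteroendocrine genes 0 were higher by limma (0 at an unadjusted p under 0.05) and 2 lower. These were SCG2, a secretory granule protein (-1.18 ± 0.12), and the kallikrein gene KLK1 (-0.38 ± 0.11). KLK1 did not pass the test without HCT116 replicate 1 (-0.32, adjusted p = 0.111) or SW48 replicate 1 (-0.30, adjusted p = 0.124).

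**Figure D3:**
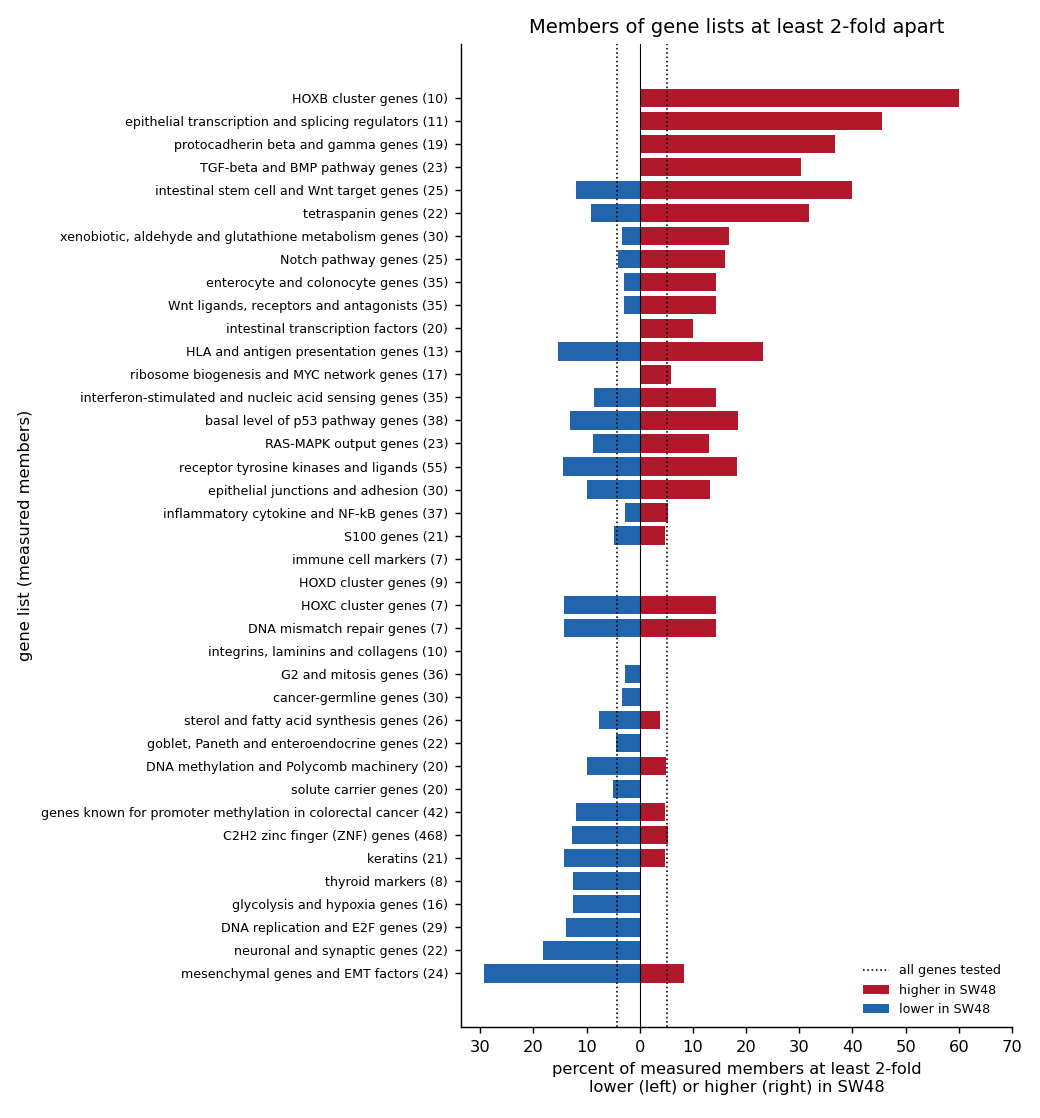
Percent of the measured members of each gene list (number in brackets) that were called and at least 2-fold higher (red, right) or lower (blue, left) in untreated SW48 than in untreated HCT116. Lists with 7 or more measured members are shown, and the dotted lines mark the share over all genes tested, 5.07% and 4.2%. The HOXB cluster has the longest bar to the right (6 of 10) and the mesenchymal list the longest to the left (7 of 24).

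Growth factor receptors and their ligands differed in both directions. Of 55 measured receptor tyrosine kinase and ligand genes 17 were higher in SW48 and 17 lower, and 10 and 8 were at least 2-fold so. The 34 of 55 called compare with 44.9% of all genes. EGFR had 11.68 and 11.58 in SW48 and 8.94 and 8.99 in HCT116, a 6.35-fold difference (2.67 ± 0.076, adjusted p = 1.84e-09). Its family member ERBB3 differed by 1.73 ± 0.066. Epiregulin, the EGFR ligand encoded by EREG, had 10.04 and 10.08 in SW48 and 12.39 and 12.29 in HCT116 (-2.28 ± 0.095, adjusted p = 3.19e-08). EGFR and this ligand thus differed with opposite signs. EREG was picked after its value was seen, and other EGFR ligands are not given here.

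The ephrin receptor EPHA1 (2.36 ± 0.092), the ephrin EFNA5 (3.09 ± 0.10) and the IGF-binding protein IGFBP4 (3.28 ± 0.14) were also higher in SW48. Lower in SW48 were the hepatocyte growth factor receptor MET (-1.72 ± 0.065) and the fibroblast growth factor FGF19 (-2.29 ± 0.11). FGF2, a fibroblast growth factor too, had 3.998 and 3.88 in SW48 and 8.48 and 8.64 in HCT116 (-4.62 ± 0.11, adjusted p = 5.36e-10). Of 23 RAS-MAPK output genes 12 were lower and 6 higher, against 22.1% and 22.7% of all genes. DUSP5, a nuclear ERK phosphatase, had 5.45 and 5.63 in SW48 and 8.86 and 8.94 in HCT116 (-3.36 ± 0.12, adjusted p = 8.88e-09). The immediate early gene EGR1 had 11.26 on both SW48 arrays and 8.79 and 8.87 on the HCT116 arrays (2.43 ± 0.064, adjusted p = 1.00e-09), and FOS was higher by 1.48 ± 0.10.

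In the TGF-beta and BMP pathway 8 of 23 measured genes were higher in SW48 and 3 lower. These 11 of 23 called were near the 44.9% of all genes. At least 2-fold higher were 7 (30.4%, against 5.07% of all genes). The inhibitory SMAD7 had 10.15 and 10.25 in SW48 and 6.16 and 6.33 in HCT116 (3.96 ± 0.12, adjusted p = 2.59e-09). LTBP1, which tethers latent TGF-beta to matrix, the BMP effector SMAD9 and the ligand BMP7 were higher by 1.61 ± 0.12, 1.59 ± 0.14 and 1.59 ± 0.14. Of 25 Notch pathway genes 8 were higher and 7 lower, which is 15 of 25 called, against 44.9% of all genes. The coactivators MAML3 (1.94 ± 0.063) and MAML2 (1.41 ± 0.14) and the glycosyltransferase LFNG (1.11 ± 0.065) were higher, and the Notch target HEYL was lower (-1.62 ± 0.14).

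All 7 measured mismatch repair list members were called, 3 higher in SW48 and 4 lower. EPM2AIP1, a list member that is not a repair gene itself, had 4.47 and 4.43 in SW48 and 8.08 and 8.13 in HCT116, 12.6-fold lower in SW48 (-3.66 ± 0.084, adjusted p = 4.32e-10). Untreated RKO was as low as SW48, at 4.43 and 4.37. MSH3, which recognizes larger loops, had 9.92 and 9.79 in SW48 and 7.75 and 7.83 in HCT116 (2.06 ± 0.094, adjusted p = 6.00e-08). PMS1 (-0.74 ± 0.11) and MSH6 (-0.66 ± 0.061) were lower.

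Of 42 measured genes known for promoter methylation in colorectal cancer, 12 were lower in SW48 and 2 higher. These 14 of 42 called compare with 44.9% of all genes. At least 2-fold lower were 5 (11.9%, against 4.2% of all genes). Of the 42 genes 28 did not pass the test, and the median difference was -0.07. HLTF was the most extreme. RASSF2, a RAS-association domain gene, had 4.52 and 4.63 in SW48 and 7.98 and 8.01 in HCT116 (-3.41 ± 0.066, adjusted p = 1.54e-10). The angiogenesis inhibitor THBS1 (-1.60 ± 0.13), the cell cycle inhibitor locus CDKN2A (-1.35 ± 0.082) and the chromatin remodeller CHD5 (-1.09 ± 0.12) were lower too. UNC5B, a netrin receptor (1.52 ± 0.069), and NDRG4 (1.51 ± 0.078) were higher.

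Among 20 measured genes of DNA methylation and Polycomb repression, 6 were higher in SW48 and 9 lower. That is 15 of 20 called, against 44.9% of all genes. The de novo methyltransferases had opposite signs, with DNMT3B lower (-1.46 ± 0.10) and DNMT3A higher (1.03 ± 0.064). TET1, which oxidizes methylcytosine, was lower (-1.37 ± 0.11), and the glycosylase MBD4 was slightly higher (0.53 ± 0.069). Of 30 cancer-germline genes 3 were higher and 3 lower, which is 6 of 30 called against 44.9% of all genes. PRAME, a germline antigen, was the single member at least 2-fold apart (-1.92 ± 0.10).

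Of 35 measured interferon-stimulated and nucleic acid sensing genes 10 were higher in SW48 and 9 lower, near the shares over all genes (22.7% and 22.1%). The RNA sensors TLR3 and IFIH1 were higher: TLR3 averaged 8.998 over the SW48 arrays, which differed by less than 0.1, and had 6.89 and 6.80 on the HCT116 arrays (2.15 ± 0.068, adjusted p = 3.85e-09), and IFIH1 differed by 1.61 ± 0.086. The guanylate-binding protein gene GBP3 was higher by 2.10 ± 0.24. HERC5, the ligase for ISG15, had 3.75 and 4.07 in SW48 and 7.03 and 7.07 in HCT116 (-3.14 ± 0.15, adjusted p = 6.43e-08), and STING1, the adaptor of DNA sensing, was lower too (-1.66 ± 0.084).

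Of 13 antigen presentation genes 6 were higher and 4 lower, which is 10 of 13 called, against 44.9% of all genes. The peptide-trimming enzymes ERAP2 (2.94 ± 0.22) and ERAP1 (1.13 ± 0.12) were higher, and the NKG2D ligands RAET1L (1.62 ± 0.27) and RAET1E (-1.49 ± 0.16) had opposite signs. ERAP2 was uneven in HCT116, at 5.39 and 4.59, against 8.04 and 7.81 in SW48. RAET1L was uneven in SW48, at 6.43 and 5.46, against 4.30 and 4.35 in HCT116. Of 37 inflammatory and NF-kB genes 4 were higher and 8 lower, against 22.7% and 22.1% of all genes. PTGES, which codes for a prostaglandin E synthase, had 5.75 and 5.66 in SW48 and 8.77 and 8.61 in HCT116 (-2.98 ± 0.13, adjusted p = 4.81e-08). HPGD was higher, as given above, and prostaglandin E2 itself was not measured. The bacterial sensor TLR5 (1.43 ± 0.10) and the cytokine receptor IL20RB (1.49 ± 0.16) were higher, and NOD2 lower (-0.98 ± 0.10).

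Genes of DNA replication were lower in SW48 almost throughout, by small amounts. Of 29 measured, 27 were lower and 0 higher by limma (0 at an unadjusted p under 0.05), with a median difference of -0.63. MCM10, which loads replication proteins at origins, had 9.63 and 9.59 in SW48 and 10.68 and 10.64 in HCT116 (-1.05 ± 0.060, adjusted p = 3.10e-07). The repressor E2F8 (-1.04 ± 0.075), the helicase subunit GINS2 (-1.01 ± 0.063) and the licensing factor CDT1 (-1.001 ± 0.082) were close to 2-fold lower. The genes E2F1 (-0.17 ± 0.083, adjusted p = 0.139) and RRM1 (-0.03 ± 0.057, adjusted p = 0.721) did not pass the test.

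Of 36 G2 and mitosis genes 24 were lower and 3 higher, with a median of -0.33. The kinesin gene KIF18A (-1.07 ± 0.086), the checkpoint gene MAD2L1 (-0.91 ± 0.070), the centriole kinase gene PLK4 (-0.67 ± 0.095) and CDC20 (-0.63 ± 0.064) led these. Of 17 ribosome biogenesis and MYC network genes 11 were lower and 3 higher, with a median of -0.39. ODC1, the polyamine synthesis enzyme and MYC target, was lower (-0.82 ± 0.053), as was the nucleolar NOLC1 (-0.66 ± 0.065). The higher members included MXD4 (1.22 ± 0.080) and MXD1 (0.98 ± 0.091), which compete with MYC for its partner MAX. Of 6 housekeeping genes, 5 were also lower, with a median of -0.39, among them PPIA (-0.80 ± 0.088) and TBP (-0.51 ± 0.055). Growth rate and cell number were not measured, and the part of either in these differences was not tested.

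Basal levels of p53 pathway genes differed in both directions. Of 38 measured, 15 were higher in SW48 and 10 lower, 7 and 5 of them at least 2-fold. The 25 of 38 called compare with 44.9% of all genes. SPATA18, a mitochondrial quality control gene induced by p53, had 8.01 and 7.88 in SW48 and 4.55 and 4.77 in HCT116 (3.29 ± 0.10, adjusted p = 3.85e-09). The sestrin gene SESN3 was higher by 2.23 ± 0.15. GDF15, a stress cytokine, had 9.45 and 9.13 in SW48 and 11.39 and 11.24 in HCT116 (-2.03 ± 0.096, adjusted p = 7.40e-08), and PMAIP1, the pro-apoptotic NOXA gene, was lower as well (-2.02 ± 0.067). MATR3, a nuclear RNA-binding protein named with the study, had 9.73 and 9.72 in SW48 and 9.81 and 9.86 in HCT116 (-0.11 ± 0.053, adjusted p = 0.138).

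Metabolic genes added further differences. Of 30 measured xenobiotic, aldehyde and glutathione metabolism genes 15 were higher in SW48 and 4 lower, with a median difference of 0.27. The 19 of 30 called compare with 44.9% of all genes. The carbonyl reductase CBR1 had 8.33 and 8.42 in SW48 and 5.39 and 5.31 in HCT116 (3.03 ± 0.067, adjusted p = 3.37e-10). The glutathione transferases GSTA4 (2.90 ± 0.080) and GSTT1 (1.88 ± 0.21) and the aldehyde dehydrogenase ALDH2 (2.21 ± 0.073) were higher as well. Of 16 glycolysis and hypoxia genes 8 were lower and 4 higher, which is 12 of 16 called, against 44.9% of all genes. BNIP3, a mitophagy receptor induced by hypoxia, had 4.34 and 4.22 in SW48 and 9.30 and 9.27 in HCT116, 32.3-fold lower in SW48 (-5.01 ± 0.098, adjusted p = 1.72e-10). The vasoactive peptide gene ADM differed by -2.13 ± 0.078, while GAPDH (-0.51 ± 0.078) and HK1 (0.61 ± 0.063) differed by less than 2-fold.

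Of 26 sterol and fatty acid synthesis genes 11 were lower in SW48 and 4 higher. That is 15 of 26 called, against 44.9% of all genes. ELOVL5, which elongates polyunsaturated fatty acids, had 4.38 and 4.63 in SW48 and 8.67 and 8.65 in HCT116 (-4.16 ± 0.090, adjusted p = 3.15e-10). FADS1, a desaturase of the same pathway (-1.42 ± 0.16), and the fatty acid synthase FASN (-0.99 ± 0.089) were lower, and the sterol reductase TM7SF2 was higher (1.01 ± 0.073). Of 22 neuronal and synaptic genes 8 were called, 7 of them lower, against 44.9% of all genes called. MAPT, the tau gene (-2.68 ± 0.068), and the synaptic vesicle gene SYT1 (-1.35 ± 0.12) had the largest of these differences.

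The homeobox clusters code for factors that pattern the body axis. Of 10 measured HOXB genes 8 were higher in SW48 and 1 lower, with a median difference of 1.24, and 6 were at least 2-fold higher. HOXB9 had 11.93 and 11.99 in SW48 and 9.69 and 9.60 in HCT116 (2.31 ± 0.059, adjusted p = 8.40e-10). HOXB2 (2.11 ± 0.15), HOXB6 (1.52 ± 0.076) and HOXB8 (1.40 ± 0.25) followed, and HOXB13, at the posterior end of the cluster, was higher by 0.44 ± 0.093. The HOXC cluster had 2 of 7 genes higher and 2 lower, including HOXC10 (1.97 ± 0.11) and its neighbour HOXC9 (-1.36 ± 0.090). In the HOXD cluster 4 of 9 were higher and 1 lower, none of them by 2-fold. The 4 of 7 HOXC and 5 of 9 HOXD genes called compare with 44.9% of all genes.

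Clustered protocadherin genes, which code for adhesion molecules of neurons, were higher in SW48 at 14 of 19 members and lower at 0 by limma (0 at an unadjusted p under 0.05), with a median of 0.68. PCDHB13 had 7.94 and 7.76 in SW48 and 3.51 and 3.33 in HCT116 (4.43 ± 0.17, adjusted p = 1.98e-08), and PCDHB14 was higher by 3.38 ± 0.16. These genes are near-identical neighbours, so probes may read more than 1 of them and the values of single members are uncertain. Tetraspanins were higher at 13 of 22 members and lower at 3, which is 16 of 22 called, against 44.9% of all genes. TSPAN2 had 8.65 and 8.45 in SW48 and 4.51 and 4.62 in HCT116 (3.99 ± 0.10, adjusted p = 8.30e-10), TSPAN1 (1.84 ± 0.098) and TSPAN8 (1.63 ± 0.090) were higher, and TSPAN5 was lower (-1.79 ± 0.086).

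Zinc finger genes of the ZNF family were the largest family measured, with 468 members, of which 104 were higher in SW48 and 136 lower. These 240 of 468 called compare with 44.9% of all genes. At least 2-fold lower were 60 (12.8%) and higher 25 (5.3%), against 4.2% and 5.07% of all genes. Many of these repressor genes lie in tandem clusters on chromosome 19. Of 226 ZNF genes there, 44 were at least 2-fold lower (19.5%) and 11 at least 2-fold higher (4.87%). Among 242 ZNF genes elsewhere the shares were 6.61% and 5.79%, and among 703 other protein-coding genes of chromosome 19 they were 5.41% and 2.70%. ZNF480 was the most extreme. ZNF845 had 4.09 and 3.39 in SW48 and 7.67 and 7.61 in HCT116 (-3.90 ± 0.19, adjusted p = 1.12e-07). ZNF385B (-4.72 ± 0.11) and ZNF518B (-4.64 ± 0.15), on other chromosomes, were also lower. Genes of a tandem cluster share sequence and position, so they are not independent observations.

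Chromosome position was examined over all protein-coding genes, in 283 runs of 40 to 48 consecutive measured genes. The 5th and 95th percentiles of the run medians were -0.14 and 0.16, and 135 of the 283 were above 0. On chromosome 14 all 8 runs were above 0, with medians from 0.09 to 0.40, and of its 354 genes 169 were higher in SW48 and 41 lower. On chromosome 7, 12 of 13 runs were above 0, and of 530 genes 232 were higher and 55 lower. Chromosome 8 had 2 of 10 runs above 0, with 70 of 423 genes higher and 158 lower, and held the lowest run, from TPD52 to CCNE2, at -0.36. There were 3 runs above 0 on each of chromosomes 17 (of 18), 19 (of 23), 4 (of 12), 5 (of 13), 6 (of 13), and 10 (of 11). The same number lay above 0 on chromosomes 18 (of 4), 20 (of 8), 21 (of 3) and 22 (of 6). On chromosome 15, 7 of 8 runs were above 0. Genes of a chromosome are not replicates, so no test was made, and DNA copy number was not measured.

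**Figure D4:**
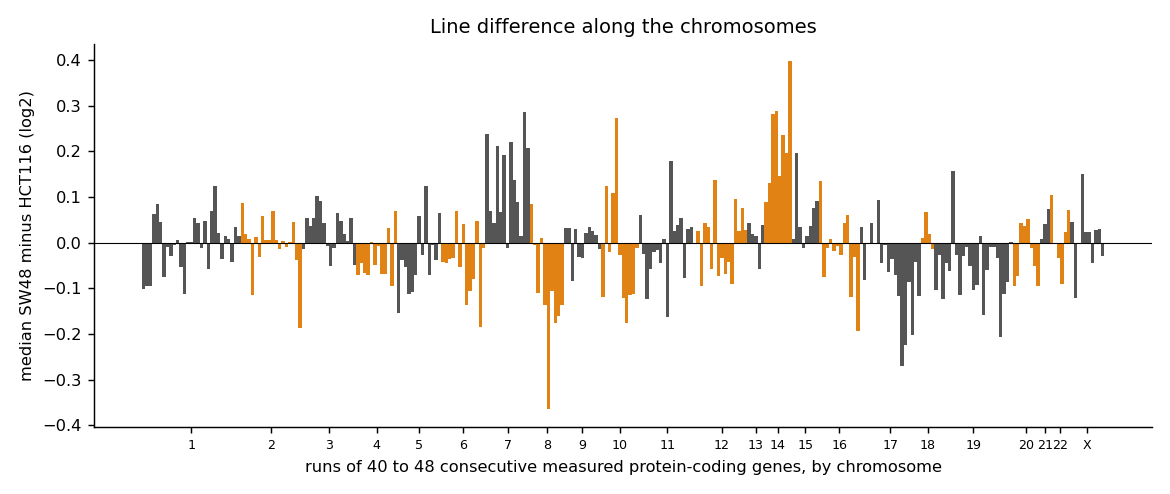
Median difference, untreated SW48 minus untreated HCT116 (log2), in 283 runs of consecutive measured protein-coding genes, in order along each chromosome. Bars of neighbouring chromosomes alternate in colour. All 8 bars of chromosome 14 and 12 of the 13 bars of chromosome 7 lie above 0, and the lowest bar lies on chromosome 8.

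Among 11730 protein-coding genes 2850 were higher in SW48 and 2927 lower, which is 5777 called, against 44.9% of all genes. Of 1359 long noncoding RNA genes 251 were higher in SW48 and 108 lower, which is 359 of 1359 called, against 44.9% of all genes. At least 2-fold higher were 57 and lower 17. The last counts are 4.2% and 1.3%, against 5.07% and 4.2% of all genes. MIR31HG, the host transcript of miR-31, had 11.46 and 11.45 in SW48 and 6.22 and 6.26 in HCT116 (5.21 ± 0.11, adjusted p = 2.44e-10). MYO16-AS1 had 9.77 and 9.49 in SW48 and 4.10 and 3.91 in HCT116 (5.62 ± 0.14, adjusted p = 6.27e-10). LINC03033 (5.39 ± 0.094), SH3PXD2A-AS1 (4.56 ± 0.11) and LINC00842 (4.33 ± 0.10) were likewise higher. UCA1, a transcript first described in bladder cancer, had 7.93 and 8.06 in SW48 and 11.24 and 11.20 in HCT116 (-3.22 ± 0.10, adjusted p = 3.57e-09). LINC00173 (-3.10 ± 0.18), ATP2A1-AS1 (-2.64 ± 0.11), LINC00640 (-1.97 ± 0.098) and ZNF566-AS1 (-1.96 ± 0.13) were lower. Signal of an antisense gene may include its partner where their exons overlap.

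Of 611 microRNA genes 56 were higher in SW48 and 31 lower, which is 87 of 611 called, against 44.9% of all genes. At least 2-fold higher were 12 and lower 3. These last counts are 2.0% and 0.5% of the microRNA genes, against 5.07% and 4.2% of all genes. The leading ones belong to the paired miR-23, miR-27 and miR-24 clusters of chromosomes 9 and 19, which encode mature microRNAs of shared seed. Mature sequences from RefSeq (GRCh38.p14) are shown for the loci that differed, with the seed, bases 2 to 8, in capitals, to make the shared seeds visible.
hsa-miR-27a-3p: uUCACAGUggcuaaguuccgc
hsa-miR-27b-3p: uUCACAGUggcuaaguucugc
hsa-miR-23a-3p: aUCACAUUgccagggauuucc
hsa-miR-23b-3p: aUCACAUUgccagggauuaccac
hsa-miR-24-3p: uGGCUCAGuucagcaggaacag
hsa-miR-31-5p: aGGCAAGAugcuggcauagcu
hsa-miR-222-3p: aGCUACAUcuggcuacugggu
Both miR-27 forms carry the seed UCACAGU and both miR-23 forms the seed UCACAUU. MIR27B had 8.32 and 8.50 in SW48 and 4.92 and 4.68 in HCT116 (3.61 ± 0.18, adjusted p = 1.00e-07). MIR23B had 8.21 and 8.36 in SW48 and 5.73 and 5.66 in HCT116 (2.59 ± 0.088, adjusted p = 6.47e-09). MIR24-1 of that cluster had 2.97 and 2.74 in SW48 and 3.08 and 3.00 in HCT116 (-0.18 ± 0.12, adjusted p = 0.275).

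AOPEP, the gene that hosts the chromosome 9 cluster, was higher in SW48 as well (2.35 ± 0.11). On chromosome 19, MIR27A (2.39 ± 0.063), MIR23A (1.55 ± 0.12) and MIR24-2 (1.35 ± 0.14) were all higher. A probe set for a microRNA gene covers the precursor locus and can read the primary or host transcript, so these values are not mature microRNA levels. The MIR31 locus had 8.68 and 8.52 in SW48 and 6.80 and 6.67 in HCT116 (1.86 ± 0.16, adjusted p = 6.71e-06), the same sign as MIR31HG. MIR222 differed by 2.23 ± 0.098, while its neighbour MIR221 did not pass the test (0.42 ± 0.24, adjusted p = 0.197). MIR200C (1.24 ± 0.20) and MIR141 (0.51 ± 0.17), a pair known for restraining mesenchymal state, were higher. MIR141 did not pass the test without SW48 replicate 2 (0.25, adjusted p = 0.258) or without either HCT116 replicate (adjusted p = 0.142 and 0.0663). Lower in SW48 were MIR378D2 (-3.35 ± 0.15), MIR3132 (-1.47 ± 0.27) and MIR3942 (-1.03 ± 0.15).

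The same lines were compared again in the arrays of Nutlin-3a-treated cells, which entered no mean of the untreated comparison but shared its estimate of the spread. There 6604 genes were called (46.8%), 3293 higher in SW48 (23.3%) and 3311 lower (23.5%), and 1232 were at least 2-fold apart (8.73%). A total of 5273 genes were called in the same direction in both, which is 83.2% of the untreated calls and 79.8% of the Nutlin-3a calls, and 11 were called in opposite directions. Of the 1309 genes at least 2-fold apart without drug, 1308 had the same sign with it, and 1061 were again at least 2-fold apart (81.1% of that list and 86.1% of the Nutlin-3a list).

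The line difference itself was called different between drug and no drug for 30 genes (0.212%), 17 of them among those 1309. With any 1 of the 8 arrays left out, 8 to 18 genes were called. It was 6 at an adjusted p under 0.01, 145 where the prior was robust with an intensity trend, and 0 in limma's treat against a difference of 0.5 (36 at an unadjusted p under 0.05). SPATA18 had 9.52 and 9.70 in treated SW48 and 5.13 and 4.95 in treated HCT116, so its line difference was 4.57 with drug, against 3.29 without. TLR3 had 9.16 and 9.07 in treated SW48 and 8.15 and 8.25 in treated HCT116, and its line difference was 0.91 with drug, against 2.15 without. GDF15 had 11.87 and 11.89 in treated SW48 and 12.88 and 12.84 in treated HCT116, with a line difference of -0.98, against -2.03 without drug.

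**Figure D5:**
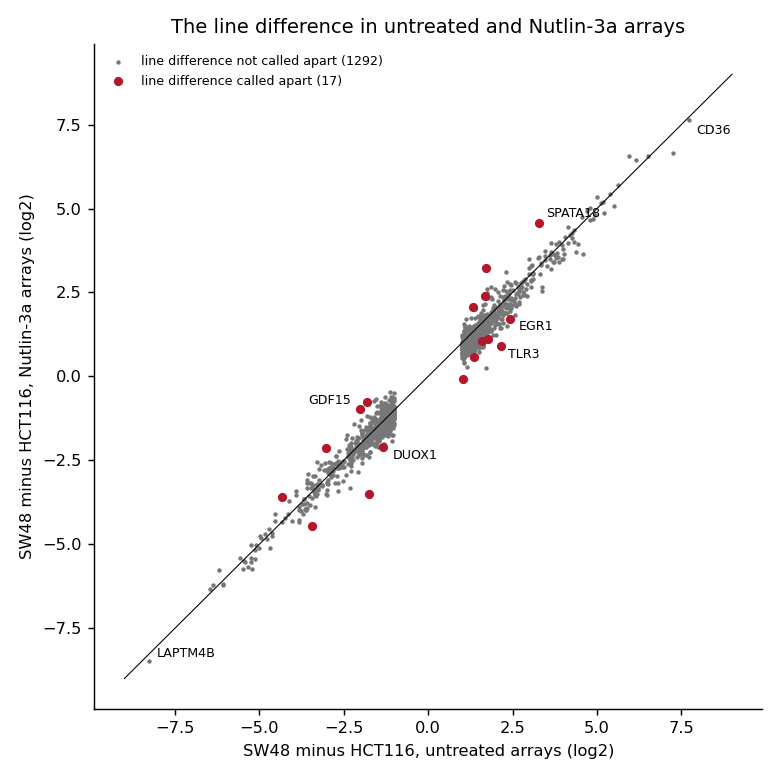
Difference between SW48 and HCT116 (log2) in the Nutlin-3a arrays (vertical axis) against the untreated arrays (horizontal axis) for the 1309 genes at least 2-fold apart without drug. The line marks equal differences, and red points are the 17 genes whose line difference was called different between the treatments. Nearly all genes lie close to the line from LAPTM4B at the lower left to CD36 at the upper right.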

How the data were processed

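The authors deposited 1 table of log2 expression values, 1 value per probe set and array, from total RNA hybridized to Affymetrix arrays. Per the submitters' processing notes the GCOS software was used. Base 2 of the logarithm was inferred from the range, 2.22 to 13.45. The GCOS version, the normalization and the genome build are not given in the sources consulted. Column medians of 4.97 to 5.05 show 1 common scale. No 2 columns were identical. Per the labels' protocols RNA was extracted with TRIzol, and the labels name both Cy3 and biotin as the label.

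Of 37270 probe sets 14530 (39.0%) had 1 gene symbol in the platform annotation, 0 had several and 22740 had none and were not used. For the 395 genes with several probe sets, the one brightest over the 12 arrays was used. Gene numbers matched the RefSeq gene table of GRCh38.p14 for all 14530, which gave gene types and chromosomes. Dim genes were kept.

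A model of 6 group means over all 12 arrays was fitted with limma 3.58.1 in R 4.3.3, with moderated variances (residual degrees of freedom 6, prior 3.71) and Benjamini-Hochberg adjustment over all 14118 genes. The fit was tested on simulated data with known differences. Only 2 arrays per group limit the precision, and no batch was recorded. Tables and figures were made in Python 3.11.15 with pandas 2.3.3 and matplotlib 3.10.9.

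The comparison, the gene lists and the tests were chosen with earlier results of these data known. Genes were named by rule: the 12 largest called differences in each direction among protein-coding genes, 5 among long noncoding RNAs and 3 among microRNA genes, up to 4 members of each list, and 12 genes chosen in advance where measured. Except for the genes chosen in advance, the rule took only genes whose untreated SW48 arrays both lay on one side of both untreated HCT116 arrays. Separation of the arrays is therefore no result for genes named this way. XIST and genes of the Y chromosome were left out. The following were added after their values were seen: RNF43, ZNRF3, MSI1, CDCA7, CD44, EREG, MET, ERBB3, EPHA1, FGF19, IL32, CEACAM6, STING1, IFIH1, CDKN2A, CHD5, NDRG4, EPCAM, KRT8, OVOL1, E2F1, RRM1, HOXB13, AOPEP, MIR23A, MIR24-1, MIR24-2, MIR31, MIR222, MIR221, MIR200C, MIR141 and MIR34A. No set test was run. Alternatives covered the model, the arrays in the fit, normalization, probe set choice, dim genes, thresholds and each array left out.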

Additional observations from a re-analysis of the deposited data

Results flagged for a closer look

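The line difference between SW48 and HCT116 was called different in the Nutlin-3a arrays and the untreated arrays, by limma's interaction term adjusted over all genes, for 6 genes named here. MIR34A, the locus of a p53-induced microRNA, had 5.78 and 5.80 in treated SW48, 3.78 and 3.85 in treated HCT116, 4.28 and 4.40 in untreated SW48 and 3.73 and 3.61 in untreated HCT116. Its line difference was larger with drug by 1.31 ± 0.11 (adjusted p = 0.0022). That of SPATA18 was larger by 1.29 ± 0.15 (adjusted p = 0.0133). GDF15 differed by 1.05 ± 0.14 (adjusted p = 0.0199), its deficit in SW48 being smaller with drug. For TLR3 the change was -1.24 ± 0.097 (adjusted p = 0.0022), for EGR1 it was -0.72 ± 0.090 (adjusted p = 0.0186), and for DUOX1, an NADPH oxidase gene, it was -0.77 ± 0.11 (adjusted p = 0.0284). Leaving out any 1 of the 8 SW48 and HCT116 arrays gave 8 to 18 such genes, against 30. What these differences come from was not tested.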

How the results depend on the processing

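With all 37270 probe sets tested, 10196 were called in the untreated comparison, 2305 of them at least 2-fold, and 10961 in the Nutlin-3a comparison. The counts rose as more features entered, but the shares called were lower than in the main fit. There 6334 of 14118 genes were called (44.9%), 1309 of them at least 2-fold apart (9.27% of all genes), and 6604 in the Nutlin-3a arrays (46.8%). Testing against a difference of 0.5 (limma's treat) left 1945 untreated and 1859 Nutlin-3a calls, and 0 genes whose line difference changed with drug (36 at an unadjusted p under 0.05). That last count was 145 with an intensity trend and robust prior and 6 at an adjusted p under 0.01, against 30; the cause was not tested. Leaving out 1 array gave 5463 to 6272 untreated calls, 1280 to 1343 at least 2-fold, 5533 to 6581 Nutlin-3a calls and 8 to 18 changed line differences; leaving out treated arrays was added after seeing the data. The replicate block over the untreated arrays gave 5812 calls, 1309 at least 2-fold. Same-numbered arrays of the lines did not deviate together (r = -0.044), so the numbers were not taken as pairs. Quantile normalization and median centring gave 6419 and 6253 calls.

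Of 4501 values of 226 named genes under alternatives, 4392 kept direction and side of the threshold. Many alternatives changed only the spread, the genes tested or the threshold and left the difference itself as it was. Direction could not change in those, so the count says little about direction. The values that reversed, all small, did so in the Nutlin-3a arrays: CSAG1 (0.06), HOXC8 (0.13) and HOXD11 (0.14). Without 1 array, 13 named genes lost their call: CD8A, CSAG1, HOXC13, HOXC8, HOXD11, HOXD4, IYD, KLK1, MIR141, NKX2-1, PGK1, SDC2 and TEX14. Of 2640 list counts and medians 74 moved. Few arrays and unknown background limit genes near the low end of the scale.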
